A study of Mus musculus with 2 samples.

Results

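Akr1cl-positive LβT2 cells were compared with Akr1cl-negative cells inside each of 2 single-cell RNA-seq libraries. A cell was chosen as positive by 2 or more unique molecular identifiers (UMIs) of Akr1cl and as negative by 0. The positive class held 288 of 3881 cells, the negative class 3179, and the 414 cells with 1 Akr1cl UMI belonged to neither. LβT2 is an immortalised mouse gonadotrope line, made with a viral T antigen under the Lhb promoter, so all cells shared one origin and the T antigen. At passage 15, one culture received 2 nM GnRH for 40 min and one culture received vehicle for 40 min. Each gave 1 library by GEM Drop-seq, in which every captured transcript carries a UMI so that PCR copies are counted once.

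Akr1cl encodes a member of the aldo-keto reductase family, enzymes that reduce carbonyl groups with NADPH. The better known mouse Akr1c enzymes act on steroids and prostaglandins. Gonadotropes secrete luteinising and follicle-stimulating hormone, answer to GnRH through a calcium- and kinase-coupled receptor, and switch on early genes such as Btg2, an antiproliferative regulator, within minutes.

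The table analysed here held 1068 genes, of which 1062 were placed and all of these lay on chromosome 1, so the values cover 3.81% of the gene list. Levels are in CPM, scaled to the UMIs of these genes without Akr1cl and not to the whole transcriptome. The positive class summed to 100938 vehicle and 84630 GnRH UMIs, and the negative class to 896920 and 902565. Cells are not replicates, so with 1 library per treatment differences were described by size, without a test, p-value or replicate check. Intervals are 95% and cover counting error only, without the variation between cells or cultures. Column names held the treatment and a cell number, so barcodes shared between the libraries could not be counted.

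Akr1cl lies on the minus strand of chromosome 1 in GRCm38, from 65012689 to 65032759. The opposite strand of this interval carries the pseudogene Gm8550, and use of strand in counting is not given in the sources used here. The 250 bases before the gene start are shown for Akr1cl, which set the classes, for Etnk2 and Igfbp5, a gene higher and a gene lower in positive cells, and for Btg2, the early gene compared between the classes. The start is that of RefSeq, which meets the GENCODE start for Akr1cl and Etnk2. The Igfbp5 stretch runs 19 bases into the gene as GENCODE places it, and the Btg2 stretch ends 35 bases before it. Capitals mark letters of 7 searched motifs, read on both strands.
Akr1cl, chr1:65032760-65033009, minus strand: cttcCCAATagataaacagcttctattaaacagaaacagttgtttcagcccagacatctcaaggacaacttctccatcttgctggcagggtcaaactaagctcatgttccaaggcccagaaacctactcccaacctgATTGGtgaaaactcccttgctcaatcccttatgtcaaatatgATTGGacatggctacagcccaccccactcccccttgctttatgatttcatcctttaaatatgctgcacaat
Etnk2, chr1:133363322-133363571, plus strand: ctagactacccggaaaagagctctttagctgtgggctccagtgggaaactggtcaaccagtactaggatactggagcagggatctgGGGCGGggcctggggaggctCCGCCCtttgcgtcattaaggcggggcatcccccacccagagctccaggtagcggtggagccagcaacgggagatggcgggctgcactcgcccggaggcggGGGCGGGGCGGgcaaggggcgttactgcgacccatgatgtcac
Igfbp5, chr1:72874866-72875115, minus strand: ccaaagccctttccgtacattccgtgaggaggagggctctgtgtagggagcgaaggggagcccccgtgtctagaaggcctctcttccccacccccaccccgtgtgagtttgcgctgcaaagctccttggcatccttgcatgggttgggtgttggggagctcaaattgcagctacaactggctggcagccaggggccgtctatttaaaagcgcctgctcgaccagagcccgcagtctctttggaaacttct
Btg2, chr1:134079156-134079405, minus strand: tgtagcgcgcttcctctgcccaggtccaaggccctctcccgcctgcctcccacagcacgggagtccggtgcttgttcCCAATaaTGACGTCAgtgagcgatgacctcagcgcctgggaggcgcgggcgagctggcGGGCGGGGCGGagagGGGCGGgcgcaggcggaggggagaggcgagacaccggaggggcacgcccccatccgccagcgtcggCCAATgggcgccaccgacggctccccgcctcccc

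The sequences are from RefSeq (GRCm38.p6), and 8 of 9 genes looked for were matched there. The motifs searched were the CCAAT box, the GC box (letters GGGCGG), the cyclic AMP response element (letters TGACGTCA) and 4 more given further on with their letters. A GC box may overlap the next one, as in Etnk2. The Akr1cl stretch held CCAAT 3 times, 1 time as written and 2 times on the other strand, and none of the other motifs. CCAAT occurred in 33.8% of 32851 RefSeq promoters of this length. The Akr1cl stretch was 44.0% G or C with 0 CG pairs, against medians of 52.4% and 6.0 over all promoters. The Btg2 stretch was 73.2% G or C with 27 CG pairs. It held CCAAT 2 times, GGGCGG 3 times and the cyclic AMP response element TGACGTCA, the last of which 1.55% of promoters contained. Etnk2 held GGGCGG 4 times, a motif present in 32.7% of promoters, and Igfbp5 held none of the 7. The TATA box (letters TATAAA) occurred in 12.4% of promoters. The site of SF-1, a gonadotrope regulator (letters AAGGTCA), occurred in 4.08%, the AP-1 site (letters TGANTCA) in 6.75% and the Pitx site (letters TAATCC) in 6.25%. A match describes letters and is not evidence of binding.

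Akr1cl UMIs were unevenly spread over cells in both libraries. The vehicle library held 817 Akr1cl UMIs, or 725 CPM over all analysed genes (95% interval 677 to 777), and the GnRH library 691, or 618 CPM (572 to 666). The mean was 0.410 UMI per vehicle cell and 0.366 per GnRH cell, while single cells reached 30 and 23. In the vehicle library 1623 of 1992 cells (81.5%) held none, against 67.3% expected had Akr1cl been the same share of every cell's UMIs. In the GnRH library 1556 of 1889 cells (82.4%) held none, against 70.0% expected. At the other end, 34 vehicle cells and 26 GnRH cells held 5 or more, where 0.401 and 0.208 cells were expected. These few cells carried 34.5% of all Akr1cl UMIs of the vehicle library and 33.0% of those of the GnRH library. Cells with 2 to 4 UMIs numbered 125 with vehicle and 103 with GnRH, where 138.0 and 106.4 were expected. The positive class, at 2 or more, held 159 and 129 cells, where 138.4 and 106.6 were expected. As a group, the cells with 2 to 4 UMIs, which were most of the positive class, were therefore not in excess of an even share.

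**Figure D1:**
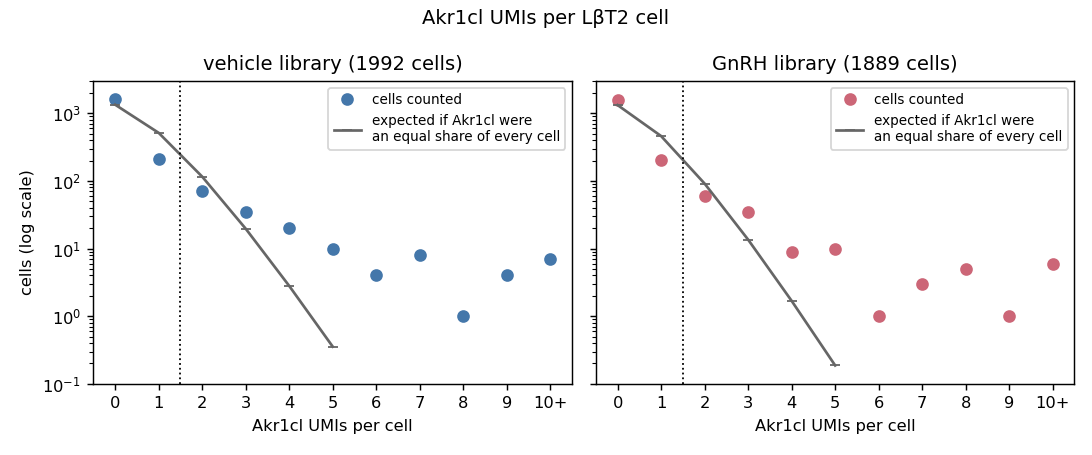
Number of cells (log scale) against Akr1cl UMIs per cell in the vehicle and GnRH libraries, with 10 or more UMIs pooled in the last point. Grey lines give the count expected had every cell held the same share of Akr1cl, drawn where above 0.1 cell, and the dotted line separates positive cells. Cells with 0 UMIs and cells with 5 or more lie above the line in both panels.

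The positive class was 159 of 1992 vehicle cells (7.98%, exact binomial interval 6.83 to 9.26) and 129 of 1889 GnRH cells (6.83%, 5.73 to 8.06). The intervals overlapped. Positive cells had a median of 3.0 Akr1cl UMIs in each library. At the threshold, 70 vehicle and 59 GnRH cells had exactly 2 UMIs, just inside, and 210 and 204 cells had 1, just outside. No cell type that should lack Akr1cl was available, so any share of UMIs from free RNA is unknown.

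Positive cells were somewhat deeper. Their median over the other genes was 614 UMIs with vehicle and 608 with GnRH, against 531 and 550.5 in negative cells. The share of positive cells climbed with depth, from 6.01% to 7.52% and 10.4% over 3 equal vehicle groups ordered by depth. In the GnRH library these shares were 5.04%, 6.71% and 8.76%. After thinning to 300 UMIs per cell, 4.62% of vehicle cells and 3.59% of GnRH cells had 2 or more Akr1cl UMIs. Of the positive cells, 16 vehicle and 10 GnRH cells were among the deepest 5% of cells of their library, and no doublet caller was run.

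The labelled cell type was checked on markers analysed here. The gonadotrope markers Inha, Inhbb, Scg2 and Resp18 summed to 74790 CPM in positive and 75300 CPM in negative vehicle cells, and to 67540 and 73400 CPM in GnRH cells. Scg2 made up most of these sums. Of the others, Inha was higher in positive cells (log2 0.53 with vehicle and 0.66 with GnRH) and Inhbb was at −0.06 and −0.36. Every positive cell of both libraries had a UMI of Scg2, a granin of secretory granules. The 12 immune markers gave 0 UMIs in positive and 28 in negative vehicle cells, and 1 and 13 in GnRH cells. The 4 muscle markers gave 9 UMIs in positive and 24 in negative vehicle cells, or 89.2 and 26.8 CPM, and 2 and 25 UMIs in GnRH cells, or 23.6 and 27.7 CPM. Their part in the vehicle differences was not tested. Of 4 fibroblast markers, Fn1 gave all UMIs in positive cells, while Col3a1, Col5a2 and Col6a3 were at 0 there. The 5 neural and glial markers, nearly all Map2 by level, stood at 2388 CPM in positive and 1986 CPM in negative vehicle cells and at 1926 and 1621 CPM in GnRH cells.

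The first question was which other genes differed between the classes. Of the analysed genes, 283 entered, each with at least 30 UMIs expected in the positive class of both libraries. Mfsd4, Etnk2, Ecel1 and Fn1 were at least 1.5-fold higher in positive cells of both libraries, and Igfbp5 and Tmem37 at least 1.5-fold lower. These 4 and 2 genes were 1.41% and 0.707% of the genes entered. In the vehicle library alone, 6 genes (2.12%) were at least 1.5-fold higher and 6 (2.12%) at least 1.5-fold lower, and in the GnRH library 7 (2.47%) and 4 (1.41%). The remaining 271 vehicle and 272 GnRH ratios lay within 1.5-fold, with medians of −0.02 and −0.01 on the log2 scale over all 283 genes. Across genes, the log2 ratios of the libraries had a Pearson correlation of 0.564, and 186 genes (65.7%) had the same sign. The genes share their cells and totals within a library and are not independent replicates.

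**Figure D2:**
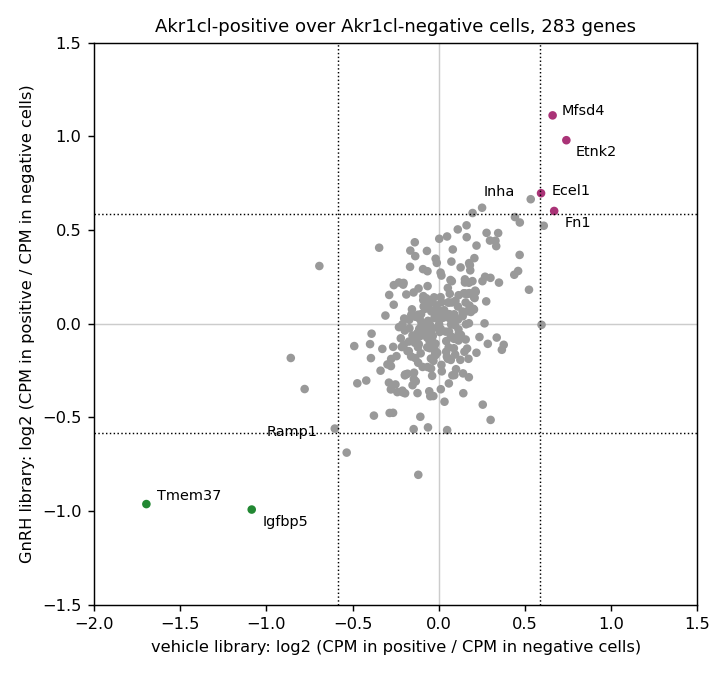
Log2 ratio of CPM in Akr1cl-positive over Akr1cl-negative cells in the vehicle library (x axis) and the GnRH library (y axis), 1 point for each of 283 genes. Dotted lines mark 1.5-fold, purple points are higher and green points lower by that size in both libraries. Igfbp5 and Tmem37 stand apart at the lower left, and Mfsd4 and Etnk2 at the upper right.

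Mfsd4, a transporter of the major facilitator superfamily, was 842 CPM in positive against 533 CPM in negative vehicle cells and 1075 against 497 CPM in GnRH cells. The ratio was 1.58-fold with vehicle (log2 0.66, interval 0.31 to 1.00) and 2.16-fold with GnRH (log2 1.11, 0.77 to 1.44). After thinning, 20.1% of positive and 13.5% of negative vehicle cells had an Mfsd4 UMI (38.4% and 23.8% before), and 25.6% and 13.1% in the GnRH library (38.8% and 23.1% before). Mfsd4 lies at chr1:132022806-132068062 on the minus strand and overlaps Elk4 on the opposite strand, so its counts are uncertain. By depth group, its vehicle ratio was 0.81-fold in the shallowest cells, on 7 UMIs in positive cells, and 1.95-fold and 1.62-fold in the others, and its GnRH ratio was 2.10-fold, 1.98-fold and 2.21-fold.

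Etnk2 encodes ethanolamine kinase, which starts the CDP-ethanolamine route to phosphatidylethanolamine, and lies at chr1:133363572-133380336. It was 1110 CPM in positive and 664 CPM in negative vehicle cells, a ratio of 1.67-fold (log2 0.74, 0.44 to 1.03). In the GnRH library it was 1619 and 821 CPM, or 1.97-fold (log2 0.98, 0.71 to 1.24). Thinned cells with an Etnk2 UMI made up 23.4% of positive and 17.8% of negative vehicle cells and 36.0% and 21.8% of GnRH cells, against 39.6%, 28.2%, 57.4% and 34.9% before thinning. Etnk2 was thus higher in positive cells of both libraries by level and by share, and its ratio was 1.54-fold to 2.21-fold in each depth group of each library.

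Ecel1, a membrane metallopeptidase related to endothelin-converting enzyme, was the most abundant of the 4. It stood at 3547 CPM in positive and 2351 CPM in negative vehicle cells (1.51-fold, log2 0.59, 0.43 to 0.76). With GnRH it stood at 3970 and 2450 CPM (1.62-fold, log2 0.70, 0.53 to 0.86). The Ecel1 ratio moved with depth. In the vehicle library it was 2.77-fold in the shallowest of the 3 depth groups, 1.61-fold in the middle and 1.16-fold in the deepest, and in the GnRH library 2.29-fold, 1.66-fold and 1.40-fold. With negative cells reweighted to the depth of the positive cells, the log2 ratios were 0.56 and 0.64, and the vehicle ratio fell short of 1.5-fold. It also fell short under TMM scaling (0.58), median-of-ratios scaling (0.58) and without cells under 300 UMIs (0.57).

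Fn1 encodes fibronectin, a matrix glycoprotein. It measured 842 CPM in positive and 530 CPM in negative vehicle cells (1.59-fold, log2 0.67, 0.32 to 1.00), and 863 and 568 CPM in GnRH cells (1.52-fold, log2 0.60, 0.23 to 0.96). An antisense gene, Apol7d, overlaps it on the opposite strand. Both Fn1 ratios were close to the 1.5-fold limit, and with negative cells reweighted by depth the GnRH log2 ratio was 0.54, short of it. Over the depth groups and libraries the Fn1 ratio ranged from 1.14-fold to 2.15-fold.

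Igfbp5 was lower in positive cells of both libraries. It encodes a secreted protein that binds insulin-like growth factors, and lies at chr1:72857932-72874884. Positive cells held 6697 CPM with vehicle and 6440 CPM with GnRH, and negative cells 14210 and 12810 CPM. The ratios were 0.471-fold (log2 −1.09, −1.20 to −0.97) and 0.503-fold (log2 −0.99, −1.12 to −0.87). From the shallowest to the deepest group they were 0.50-fold, 0.37-fold and 0.54-fold with vehicle. With GnRH they moved with depth, at 0.34-fold, 0.46-fold and 0.62-fold. Positive cells had a median of 3.0 Igfbp5 UMIs in each library, and negative cells 6.0 with vehicle and 5.0 with GnRH. The comparison was also read the other way, with Igfbp5 taken at 300 UMIs per cell and the Akr1cl class from full counts. Cells with 1 Akr1cl UMI stayed in the totals. Of vehicle cells without an Igfbp5 UMI, 16.3% were Akr1cl-positive, against 7.71% of cells with one. In the GnRH library these shares were 11.0% and 6.30%.

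Tmem37 encodes a membrane protein related to the gamma subunits of voltage-gated calcium channels. It was 188 CPM in positive and 610 CPM in negative vehicle cells (0.309-fold, log2 −1.70, −2.44 to −1.04). In the GnRH library it was 272 and 530 CPM (0.513-fold, log2 −0.96, −1.63 to −0.36). The positive class held 19 and 23 Tmem37 UMIs in all, so these ratios rest on few molecules. By depth group the ratio was 0.12-fold, 0.44-fold and 0.28-fold with vehicle, the first on 1 UMI in positive cells. With GnRH it was 0.41-fold, 0.55-fold and 0.54-fold. Thinned cells with a Tmem37 UMI were 2.60% of positive and 16.1% of negative vehicle cells and 6.40% and 13.8% of GnRH cells, and 10.7%, 24.9%, 16.3% and 23.3% before thinning.

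Cells were then set out by Akr1cl UMIs, from 0 and 1 to 2 to 4 and 5 or more, which also shows both sides of the threshold. Igfbp5 stepped down at every class. Its vehicle levels were 14210, 11920, 6912 and 5923 CPM, and its GnRH levels 12810, 10780, 7212 and 3328 CPM. Ramp1, which encodes an accessory protein of calcitonin-family receptors, ran 9572, 8022, 6292 and 6333 CPM with vehicle and 8498, 7136, 6327 and 3506 CPM with GnRH. Its positive over negative ratios, 0.658-fold and 0.679-fold, straddled the 1.5-fold limit. Tmem37 went from 610 to 447, 215 and 91.1 CPM in vehicle cells, the last from 2 UMIs, and from 530 to 489, 265 and 297 CPM in GnRH cells.

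Of the higher genes, Etnk2 and Ecel1 stepped up at every class in both libraries. Etnk2 ran 664, 776, 1025 and 1412 CPM with vehicle and 821, 963, 1327 and 2793 CPM with GnRH. Ecel1 ran 2351, 2436, 3165 and 4920 CPM with vehicle and 2450, 2697, 3200 and 7072 CPM with GnRH. Mfsd4 ran 533, 541, 848 and 820 CPM, and 497, 611, 914 and 1723 CPM. Fn1 climbed with vehicle (530, 627, 734 and 1230 CPM) and not with GnRH (568, 963, 885 and 773 CPM). The groups with 5 or more Akr1cl UMIs were 34 and 26 cells, and their intervals were wide.

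**Figure D3:**
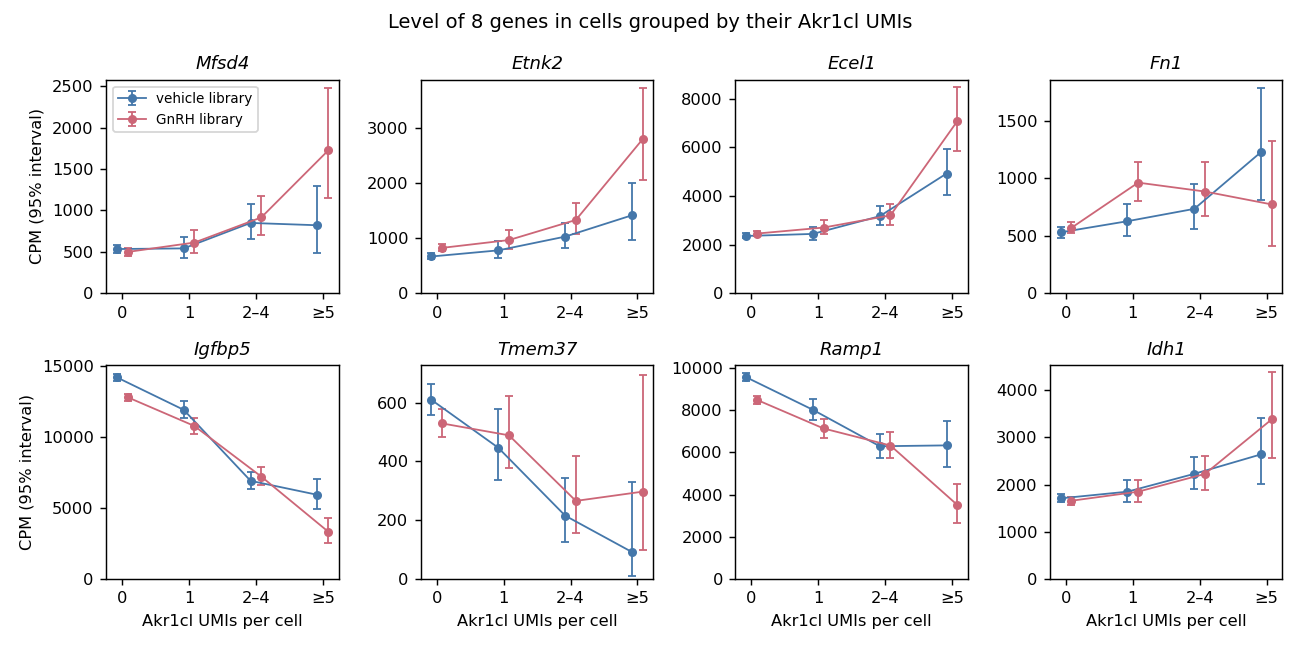
CPM of 8 genes in cells grouped by Akr1cl UMIs (0, 1, 2 to 4, 5 or more), with vehicle in blue and GnRH in red and exact Poisson 95% intervals as bars. Igfbp5 steps down from 14210 to 5923 CPM with vehicle and from 12810 to 3328 CPM with GnRH, and Etnk2, Ecel1 and Idh1 step up in both libraries.

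The gonadotrope and secretory granule genes lay on both sides of 0. Of 12 analysed, 8 entered, 1 (Ecel1) was called higher and 0 lower (1.41% and 0.707% of all genes entered), and their median log2 ratio was 0.04 with vehicle and −0.13 with GnRH, beside −0.02 and −0.01 for all genes entered. Inha, the inhibin alpha subunit, was 2467 against 1705 CPM in vehicle cells (1.45-fold, log2 0.53, 0.33 to 0.73) and 2954 against 1864 CPM in GnRH cells (1.59-fold, log2 0.66, 0.47 to 0.86), just short of the limit with vehicle. Inha dropped back in cells with 5 or more Akr1cl UMIs, to 2096 CPM with vehicle and 1426 CPM with GnRH. Scg2 was nearly even, at 68830 and 69980 CPM with vehicle (log2 −0.02) and 62250 and 68530 CPM with GnRH (log2 −0.14, −0.18 to −0.10). Ramp1 was the lowest of the 8 entered, at log2 −0.60 (−0.72 to −0.49) with vehicle and −0.56 (−0.69 to −0.43) with GnRH.

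The steroid, lipid and carbonyl metabolism genes, the functional neighbours of Akr1cl, gave 0 calls in either direction among 12 entered of 37 analysed. With 1.41% of all genes called higher and 0.707% lower, so small a list would usually hold 0 calls, and nothing is read from the count. Their medians were 0.03 and −0.02. Idh1, cytosolic isocitrate dehydrogenase and a source of NADPH, had the highest mean ratio of the 12 entered. It was 2318 against 1707 CPM in vehicle cells (1.36-fold, log2 0.44, 0.24 to 0.64) and 2458 against 1656 CPM in GnRH cells (1.48-fold, log2 0.57, 0.35 to 0.78), and climbed over the 4 Akr1cl classes to 2642 and 3387 CPM. Cyp20a1, a cytochrome P450, was lowest of the 12 entered, with log2 ratios of −0.28 and −0.35.

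The other lists held 4 to 16 genes entered, and at the overall shares of 1.41% and 0.707% their counts of calls are a description only. Of 7 actin and matrix genes entered, Fn1 was called higher, and the medians were −0.12 and −0.00. Of 4 IGF-binding and growth factor signalling genes, Igfbp5 was called lower and Bmpr2, a receptor for bone morphogenetic proteins, was highest at 0.28 and 0.49, with list medians of −0.07 and −0.23. The remaining 5 lists had 0 calls. Their medians with vehicle and with GnRH were −0.06 and 0.02 for 15 proliferation genes, 0.03 and 0.07 for 10 chaperone and stress genes, 0.06 and 0.03 for 12 translation genes, −0.06 and −0.04 for 16 respiratory chain and mitochondrial genes, and 0.14 and 0.13 for 6 neuronal adhesion, cytoskeleton and transport genes.

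Values of other list members and fixed genes follow, with vehicle first and GnRH second. Cntnap5a, a neuronal adhesion protein of the neurexin family, was 1.27-fold and 1.16-fold higher in positive cells, but in GnRH cells with 5 or more Akr1cl UMIs it was lower than in negative cells, at 12420 against 16640 CPM (log2 −0.42, −0.63 to −0.23). Mdm4, a p53 inhibitor, was 1.38-fold and 1.22-fold. Rrs1, needed for ribosome assembly, was 1.14-fold and 1.17-fold, and Bcs1l, a chaperone of respiratory complex assembly, 1.13-fold and 1.24-fold. Smarcal1, an annealing helicase, was 1.23-fold and 1.19-fold. The lowest entered members of their own lists were Bcl2, an inhibitor of apoptosis, at 0.872-fold and 0.826-fold, Tmem70 at 0.920-fold and 0.866-fold, Xrcc5 at 0.763-fold and 0.964-fold, and Ncl (nucleolin) at 0.986-fold and 0.929-fold. Ankrd44 was 0.921-fold with vehicle and 0.572-fold with GnRH. Hjurp, the chaperone of centromeric histone, was 1.18-fold with vehicle and 0.952-fold with GnRH.

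Position along the chromosome was described next, since all placed genes share one chromosome with Akr1cl. Of 80 analysed genes within 5 Mb of Akr1cl, 17 entered, with a median log2 ratio of 0.11 with vehicle and 0.17 with GnRH, above the −0.02 and −0.01 of all genes entered. Within 2 Mb the 12 genes entered had medians of 0.17 and 0.18, and within 10 Mb the 57 entered had 0.02 and 0.05. Of the 12 within 2 Mb, 9 were above 0 in both libraries, against 88 of all 283. After thinning to 300 UMIs, the 5 Mb medians were 0.04 and 0.12. Of the 4 genes entered within 1 Mb, Idh1 lay 0.126 Mb from Akr1cl, measured between the nearest ends, and had the ratios given above. Pikfyve, a lipid kinase, had log2 ratios of 0.17 and 0.22, Creb1, a cyclic AMP-responsive transcription factor, 0.16 and 0.07, and Klf7, a Krüppel-like factor, −0.33 and −0.13. The 6 called genes lay from 6.55 Mb (Fn1) to 68.3 Mb (Etnk2) away.

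**Figure D4:**
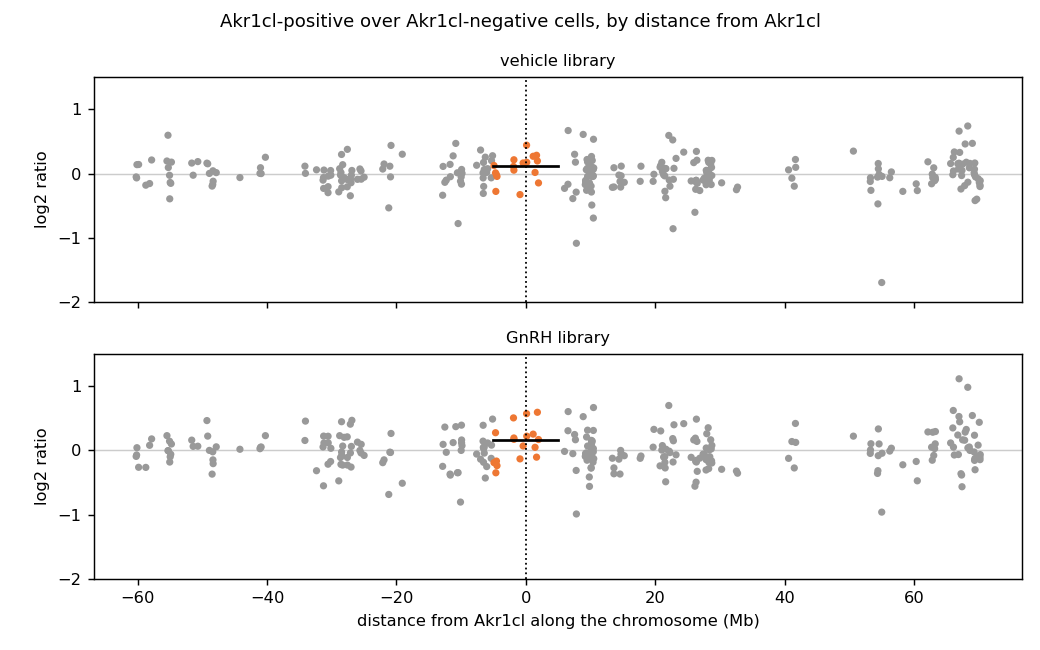
Log2 ratio of CPM in Akr1cl-positive over Akr1cl-negative cells against distance from Akr1cl (Mb) for 283 genes, with the vehicle library above and the GnRH library below. Orange points lie within 5 Mb and black bars give their median, 0.11 with vehicle and 0.17 with GnRH.

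The second question was whether the early GnRH response differed between the classes. In vehicle cells Btg2 stood at 1238 CPM in positive and 894 CPM in negative cells, and in GnRH cells at 41380 and 28450 CPM. Btg2 was therefore 33.4-fold higher with GnRH among positive cells (log2 5.06, 4.80 to 5.33) and 31.8-fold higher among negative cells (log2 4.99, 4.89 to 5.10). The ratio of these 2 ratios was 1.05 (log2 0.07, −0.21 to 0.35), so no difference in the Btg2 response was detectable over all positive cells. In cells with 5 or more Akr1cl UMIs, however, the log2 ratio was 5.88 and its difference from negative cells 0.89, since Btg2 stood at 774 CPM with vehicle, on 17 UMIs, and at 45580 CPM with GnRH. Over all positive cells, Btg2 was higher than in negative cells under either treatment, 1.38-fold (log2 0.47, 0.19 to 0.74) with vehicle and 1.45-fold (log2 0.54, 0.49 to 0.59) with GnRH. The median positive cell of the GnRH library held 26.0 Btg2 UMIs and the median negative cell 13.0, and Btg2 made up 4.14% and 2.85% of UMIs of the analysed genes.

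Coq10b, which encodes a coenzyme Q-binding mitochondrial protein, gave another pattern. It was 555 CPM in positive and 622 CPM in negative vehicle cells, and 3817 and 2912 CPM in GnRH cells. The GnRH over vehicle ratio was 6.88-fold in positive cells (log2 2.78, 2.37 to 3.22) and 4.68-fold in negative cells (log2 2.23, 2.09 to 2.36). The ratio of ratios was 1.47 (log2 0.56, 0.13 to 0.99). The vehicle sum behind the positive class was 56 UMIs. From the shallowest to the deepest group, Coq10b in positive over negative cells was 0.96-fold, 0.83-fold and 0.90-fold with vehicle. With GnRH these ratios were 1.69-fold, 1.275-fold and 1.24-fold. Cells with 1 Akr1cl UMI gave 4.15-fold for Coq10b and 34.6-fold for Btg2, and with these cells added to the positive class the log2 difference for Coq10b was 0.13. Coq10b overlaps the pseudogene Gm17971 on its own strand, so its counts are uncertain.

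The 10 genes of the GnRH-raised list had been picked for their ratio in these same libraries over all cells, so their increase is not a finding, and those the naming rule did not cover are named after their values were seen. Excluding Gm28321, with 0 vehicle UMIs in both classes, 8 of the other 9 had a larger GnRH over vehicle ratio in positive than in negative cells, as did 146 of the 283 genes entered (51.6%). The 9 include Neurl3, Fhl2 and Gm7967, which did not enter, and Btg2 counts as larger at a log2 difference of 0.07. Only Coq10b, Tmem198 and Bag2 had a counting interval of the difference above 0, and the count of 8 is a description only. Tmem198, a membrane protein gene, was 3.09-fold against 1.54-fold (ratio of ratios log2 1.00, 0.26 to 1.74, from 22 vehicle UMIs in positive cells), and overlaps Obsl1. Bag2, a co-chaperone, was 2.26-fold against 1.65-fold (log2 0.45, 0.11 to 0.79). Fhl2, a LIM-domain cofactor, was 4.82-fold against 3.17-fold (log2 0.61, −0.08 to 1.29), and Ptprn, a dense-core granule protein, 2.96-fold against 2.29-fold (log2 0.37, −0.08 to 0.82). Ppp1r15b, a phosphatase regulator of translation initiation, was 1.64-fold against 1.48-fold (log2 0.15, −0.19 to 0.49). Neurl3, a ubiquitin ligase, was 13.7-fold against 7.05-fold, but on 2 and 11 vehicle UMIs. The exception was Gm7967, a noncoding RNA, at 5.96-fold against 7.58-fold on 1 and 8 vehicle UMIs.

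**Figure D5:**
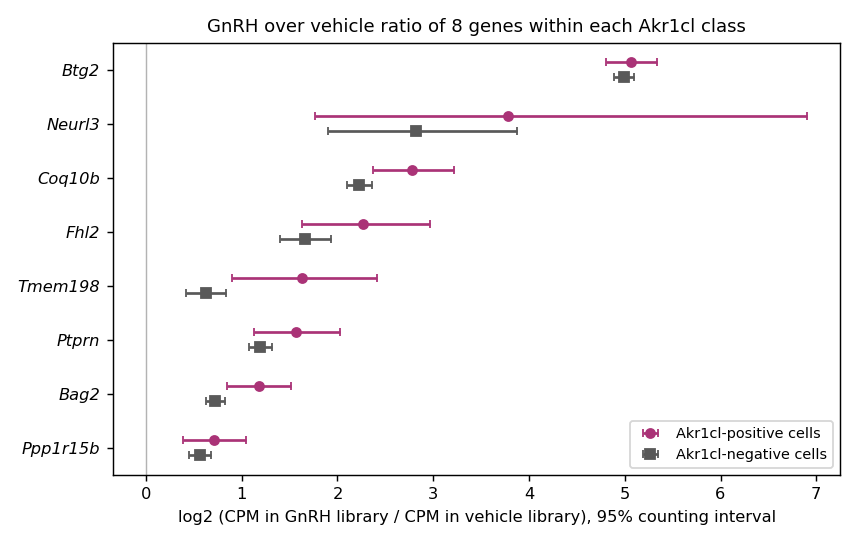
Log2 ratio of CPM in the GnRH library over the vehicle library for 8 GnRH-raised genes, within Akr1cl-positive (purple circles) and Akr1cl-negative cells (grey squares), with 95% counting intervals. The 2 Btg2 points nearly coincide at 5.06 and 4.99, and the Coq10b points stand at 2.78 and 2.23.

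Seen within a library, the list of 6 GnRH-raised genes that entered had a median log2 ratio of positive over negative cells of −0.20 with vehicle and 0.32 with GnRH, with 2 and 5 of the 6 above 0. Over all 283 genes the medians were −0.02 and −0.01, with 137 and 136 above 0. In GnRH cells Fhl2 was 1193 against 568 CPM (2.10-fold) and Neurl3 272 against 86.4 CPM (3.15-fold), while in vehicle cells Fhl2 was 248 against 180 CPM (1.38-fold). Fhl2 and Neurl3 did not reach the expected count for entry. Over all 283 genes, the median GnRH over vehicle log2 ratio was −0.07 in positive and −0.09 in negative cells. At least 2-fold higher with GnRH were 5 genes in positive cells (Btg2, Coq10b, Ptprn, Tmem198 and Bag2) and 3 in negative cells (Btg2, Coq10b and Ptprn), and Slc40a1, an iron exporter, was the 1 gene at least 2-fold lower, in positive cells. Slc40a1 was named after its value was seen.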

How the data were processed

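The authors deposited raw UMI counts per gene and called cell, made with Cell Ranger 1.3 on mm10 per the labels and processing notes. Counts were not normalized, and the annotation and use of strand are not given in the sources used here. Of 27998 listed genes, 1068 complete gene rows were used and 1 incomplete row was left out. The number of unused per-sample columns was 0. Positions came from GENCODE M21 (GRCm38).

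UMIs were summed over the cells of a class and scaled to CPM of the analysed genes without Akr1cl. Sums have exact Poisson intervals, shares Clopper-Pearson intervals, ratios conditional binomial intervals, and a ratio of 2 ratios a normal approximation on the log scale. In a ratio, 3 counts stood in for a sum of 0, and pairs of sums that both stayed within 3 counts were left out. Genes entered with at least 30 UMIs expected in the positive class of both libraries, and were called by size alone at 1.5-fold. Named were the called genes (up to 15 per direction), 11 fixed genes, the highest and lowest entered member of each list, and entered genes within 1 Mb. The classes, gene lists, markers and this rule were chosen with earlier results of these data known. For comparisons of shares, cells were thinned at random to 300 UMIs, leaving out shallower cells (5 positive and 194 negative vehicle cells, 4 and 95 GnRH cells). The calling step was tried on sums simulated from the negative-class proportions, with 2-fold changes planted and Poisson noise only. That setting has larger changes than the 1.5-fold limit and no variation between cells, so it does not vouch for the calls made here.

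Alternatives were TMM scaling (edgeR 4.0.16, used for nothing else), median-of-ratios scaling, Btg2 left out of totals, mean CPM per cell, other minimums, other Akr1cl thresholds, cell filters, thinning, reweighting negative cells by depth, and a fold of 2. Python 3.11.15, numpy 2.4.6, scipy 1.17.1, pandas 2.3.3 and R 4.3.3 were used.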

Additional observations from a re-analysis of the deposited data

How the results depend on the processing

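No paired analysis was possible because vehicle and GnRH are single libraries. The 6 named calls kept their direction in both libraries in every alternative run, while the counts, 4 higher and 2 lower, moved. Genes called higher numbered 2 under TMM scaling (Etnk2 and Mfsd4), 2 with negative cells reweighted by depth (the same genes), 1 at a minimum of 100 expected UMIs (Ecel1), 47 with no minimum but 1 UMI (25 of which had 0 UMIs in positive cells of a library and count as higher through the 3-count floor alone, leaving 22), 2 with positive cells at 1 or more Akr1cl UMIs (neither among the 4), 2 at 3 or more, 1 at 5 or more and 0 at a fold of 2. Genes called lower numbered 4 by mean CPM per cell, 5 at a minimum of 10 expected UMIs, 1 at 100, 5 with no minimum, 0 at 1 or more Akr1cl UMIs, 4 without the deepest 5% of cells and 0 at a fold of 2. Igfbp5 remained called in each of these except 1 or more Akr1cl UMIs and the fold of 2. With cells thinned to 300 UMIs, Ecel1, Etnk2 and Tns1 were called higher and Igfbp5, Rabif and Ramp1 lower. Mfsd4, Fn1 and Tmem37 were not called there, being below the minimum count or the fold. Tmem37 was also not called at 3 or more or at 5 or more Akr1cl UMIs, where Ramp1 was called lower.

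The Btg2 log2 ratio in positive cells was 5.88, and its difference from negative cells 0.89, at 5 or more Akr1cl UMIs. The Coq10b log2 ratio in positive cells was 2.35 at 1 or more. The Coq10b difference stayed above 0 in every alternative, from 0.13 (1 or more) to 0.81 (5 or more). Shares of positive cells were 4.62% and 3.59% after thinning. Of 768 single-gene values under alternatives, 674 stayed inside their counting interval, and 94 left it. The sign changed in 0 of 144 values of the 6 called genes and in 26 of 624 of the other named genes, 9 of these at 5 or more Akr1cl UMIs (among them Inha and Cntnap5a with GnRH and Btg2 with vehicle). Of the 94, 37 were at 5 or more Akr1cl UMIs, 22 with classes from thinned counts and 16 at 1 or more. Classes set from thinned counts, an alternative added after the data were seen, gave 3 higher and 2 lower genes, with Tmem37, Mfsd4, Etnk2 and Fn1 below the minimum count or fold, and a Coq10b difference of 0.29. Depth, 288 positive cells and 1 library per treatment limit all values.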
